A study of Mus musculus with 12 samples.

Results

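Ccl3, Ccl4 and Ccl5 encode secreted CC chemokines, and Ccr1 encodes a receptor that binds CCL3 and CCL5. These 4 genes were taken by their symbols from the 770 genes of an nCounter mouse immune panel, a hybridization assay that counts barcoded probes bound to RNA without amplification. The counts came from 12 A20 tumors, 1 per mouse. A20 is a B-cell lymphoma line of Balb/c origin, and the cells had been implanted in Balb/c mice that were 7 to 8 weeks old in the study's methods.

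The tumors fell into 3 groups of 4, all of A20 cells in female Balb/c mice. The GLA-SE tumors received 10 µg of the synthetic TLR4 agonist GLA in 50 µl of a 2% stable oil-in-water emulsion (SE), the product the study calls G100. The SE tumors received the emulsion alone, and the PBS tumors received buffer. Injections were made into the tumor 3 times, every other day, starting about 7 days after implantation, and tumors were collected 2 hours after the last one. RNA was taken from whole tumor, so more cells of a type and more RNA per cell cannot be told apart in any value given here.

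CC chemokines are small secreted proteins that draw leukocytes up a concentration gradient through receptors coupled to G proteins. CCL3 and CCL4 (MIP-1α and MIP-1β) are close relatives released early by activated macrophages, lymphocytes and granulocytes. CCL5 (RANTES) attracts T cells, NK cells, monocytes and eosinophils, and its gene responds to both the NF-kB and the interferon regulatory factor arms of Toll-like receptor signaling. CCR1 is carried by monocytes, macrophages and neutrophils. Ccl3 and Ccl4 are direct neighbors in the RefSeq order of genes (GRCm38.p6).

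The panel total per tumor ran from 810260 to 1612415 counts. Each count was divided by a factor made from 17 reference genes, and the result is called a normalized count. The reference genes had a lower geometric mean count in every GLA-SE tumor than in any PBS tumor. It spanned 1893.5 to 2135.3 after GLA-SE, and 2184.4 to 2817.7 after PBS. Panel totals went the other way, at 1186487 to 1612415 after GLA-SE and 812522 to 1086462 after PBS. The scaling thus raised GLA-SE counts relative to PBS. The median log2 fold change of the panel between these groups was 0.615 without scaling and 0.893 with it. Among the SE tumors the reference mean varied most, from 1010.8 to 3077.3. SE tumor 4 had the lowest value, so its counts were raised most by the scaling. Summed counts of 6 B-cell markers lay between 11622 and 20509 normalized counts in all 12 tumors. The lowest count of any gene on the panel was 1, so counts above 0 do not test the B-cell label of the tumor.

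All 4 genes were higher after GLA-SE than after PBS, with no overlap between the groups. The fold changes, fitted with edgeR's quasi-likelihood test, were 3.54 for Ccl3, 5.08 for Ccl4, 9.95 for Ccl5 and 4.47 for Ccr1, with n = 4 tumors in each group. All 4 passed an adjusted p of 0.05, which is a Benjamini-Hochberg value over the 750 tested genes. Of these 750 genes, 68.3% were higher at the same threshold and 63.6% were higher with no overlap, so that 4 of 4 sits in a panel that mostly moved the same way. The median gene of the panel was 0.89 higher on the log2 scale. Among all 750 log2 fold changes Ccl5 ranked 14th, Ccl4 44th, Ccr1 57th and Ccl3 82nd from the top.

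Ccl5 had the largest change of the ligands. The PBS tumors held 653.8, 303.9, 503.9 and 688.6 normalized counts in replicates 1 to 4, and the GLA-SE tumors held 2242.5, 1615.7, 14177.2 and 3359.2. The lowest GLA-SE tumor was above the highest PBS tumor, and GLA-SE tumor 3 stood far above the other 3 of its group. The means were 5349 ± 5930 (SD, n = 4) and 538 ± 175, and the log2 fold change was 3.31 (SE of the estimate 0.71, 95% interval 1.69 to 4.93, adjusted p = 0.00397 by edgeR). Leaving out GLA-SE tumor 3 lowered it to 2.16, still past the threshold, where 64.4% of the panel was called higher.

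Ccl4, the close relative of Ccl3, held 98.0, 43.0, 54.8 and 62.0 normalized counts in the PBS tumors and 128.2, 123.6, 747.7 and 310.1 in the GLA-SE tumors. GLA-SE tumors 1 and 2 lay just above the highest PBS tumor, and tumors 3 and 4 lay well above it. The means were 327 ± 293 and 64.4 ± 23.7 (SD, n = 4). This gave a log2 fold change of 2.34 (SE 0.61, 95% interval 0.96 to 3.73, adjusted p = 0.00891 by edgeR), and 1.54 without GLA-SE tumor 3.

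Ccl3, whose product binds CCR1, held 233.6, 110.3, 113.2 and 161.2 normalized counts in the PBS tumors. In the GLA-SE tumors it held 256.3, 292.8, 1163.9 and 478.9. The gap between the groups was narrow, since PBS tumor 1 and GLA-SE tumor 1 lay close together. The means were 548 ± 422 and 155 ± 57.6 (SD, n = 4), and the log2 fold change was 1.83 (SE 0.51, 95% interval 0.67 to 2.98, adjusted p = 0.0121 by edgeR). It fell to 1.15 without GLA-SE tumor 3 and still passed.

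The receptor gene Ccr1 held 173.3, 81.3, 85.4 and 147.7 normalized counts in the PBS tumors and 376.8, 606.4, 689.0 and 510.4 in the GLA-SE tumors. Every GLA-SE tumor was far above every PBS tumor, and no single tumor dominated the group. The means were 546 ± 134 and 122 ± 45.8 (SD, n = 4). The log2 fold change was 2.16 (SE 0.31, 95% interval 1.47 to 2.86, adjusted p = 0.000548 by edgeR), which was the smallest error and the smallest adjusted p of the 4 genes. Without GLA-SE tumor 3 it was 2.03.

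**Figure D1:**
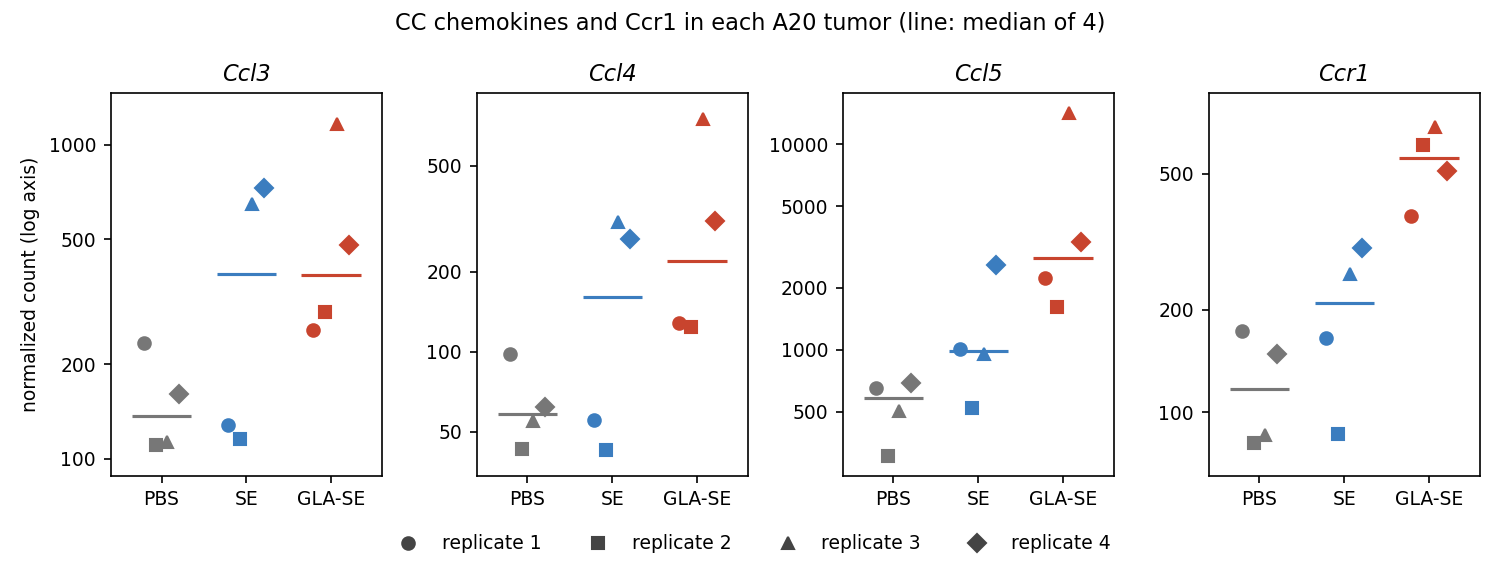
Normalized counts of Ccl3, Ccl4, Ccl5 and Ccr1 (log axis) in the PBS, SE and GLA-SE tumors, 4 per group, with each point 1 tumor and its replicate number. The GLA-SE points lie above all PBS points for each gene, from 256.3 against 233.6 at the narrowest (Ccl3), while the SE points of Ccl3 and Ccl4 split into a low and a high pair.

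Over the 70 ways to split 8 tumors, the exact permutation p was 0.0286 for each of the 4 genes in GLA-SE against PBS, the smallest two-sided value the design allows. After adjustment over the 12 gene and comparison pairs it was 0.0686 by the exact test. The same p of 0.0286 was found by the exact test on the deposited counts without any scaling.

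The calls for Ccl3 and Ccl4 depended on the scaling, while those for Ccl5 and Ccr1 did not. With each tumor scaled to its own panel median, the log2 fold changes relative to PBS were 0.48 for Ccl3 and 0.98 for Ccl4, with adjusted p of 0.301 and 0.103 by edgeR. The panel under that scaling had 61 genes higher (8.13%) and 307 lower (40.9%), against 512 higher and 3 lower with the reference genes, and with TMM scaling it had 148 higher (19.7%) and 168 lower (22.4%). Ccl5 and Ccr1 passed under every scaling tried. Relative to the panel median, the reference-scaled log2 fold changes were 0.93 for Ccl3, 1.45 for Ccl4, 2.42 for Ccl5 and 1.27 for Ccr1.

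**Figure D2:**
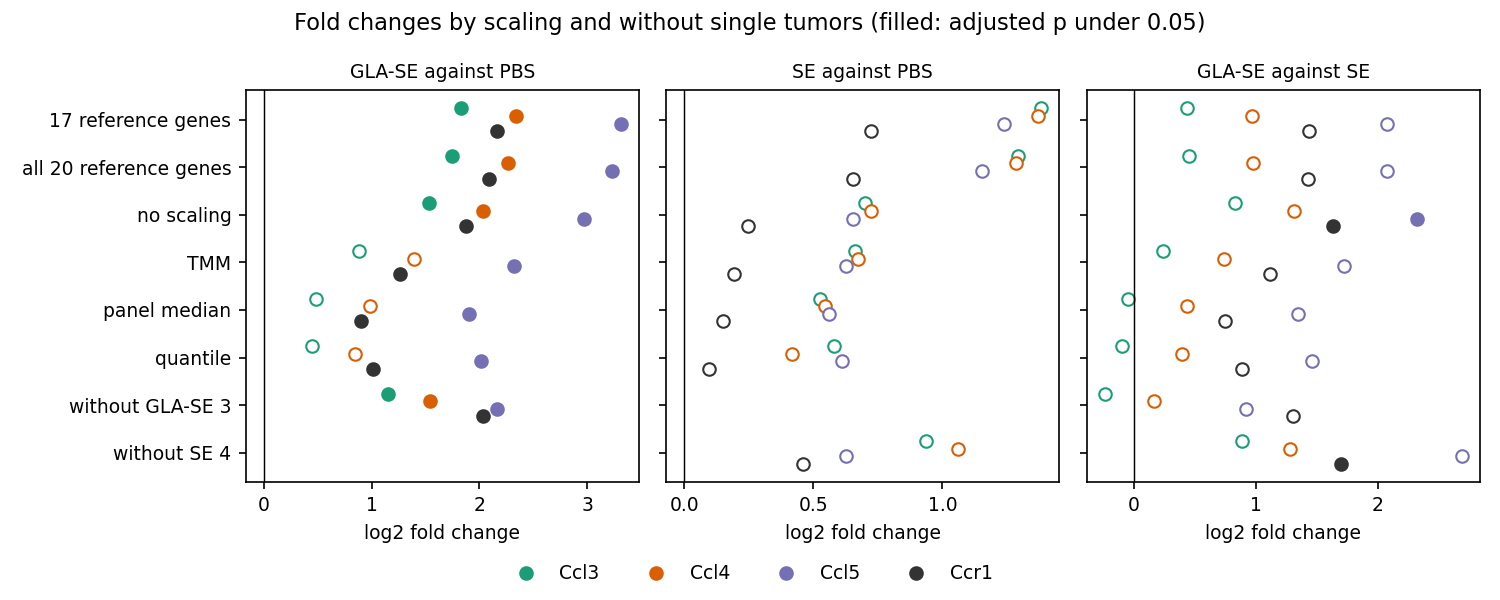
Log2 fold changes of Ccl3, Ccl4, Ccl5 and Ccr1 in the 3 comparisons under each scaling, and without GLA-SE tumor 3 or SE tumor 4. Filled points passed the adjusted threshold. In GLA-SE against PBS Ccl5 is the highest of the 4 genes throughout. The median of the 750 genes in that comparison, which is not drawn, moves from 0.89 with the reference genes to -0.40 with panel median scaling.

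The SE tumors addressed what the emulsion did on its own. None of the 4 genes passed the threshold against PBS, nor did any of the 750 genes by edgeR (0.0% called, 18.7% at an unadjusted p under 0.05), while DESeq2 called 52 higher (6.93%) and 6 lower (0.8%). At an unadjusted p under 0.05, 1 of the 4 genes passed by edgeR (Ccl5), 3 by DESeq2 (34.0% of the panel) and 0 by limma (9.07%). The SE and PBS tumors overlapped for all 4 genes, where 8.67% of the panel was higher with no overlap, and the 4 estimates were above 0. They shrank with the scaling, to 0.53 for Ccl3, 0.55 for Ccl4, 0.56 for Ccl5 and 0.15 for Ccr1 on the log2 scale with panel median scaling.

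The SE tumors were spread widely, for the ligands and for the panel as a whole. The median of all genes was 132.7, 125.0, 274.2 and 489.6 normalized counts in SE tumors 1 to 4, against 130.4 to 177.6 in the PBS tumors. Ccl3 held 127.7, 115.6, 645.8 and 728.8 normalized counts in SE tumors 1 to 4. Ccl4 held 55.5, 42.7, 307.3 and 264.6. For both genes SE tumors 1 and 2 lay below the highest PBS tumor, and SE tumors 3 and 4 lay above all PBS tumors. The normalized Ccl3 counts of SE tumors 3 and 4 were also above those of 3 of the 4 GLA-SE tumors. For SE tumor 4 this depended on the scaling. Its deposited Ccl3 count was 358, below the 1071 and 471 of GLA-SE tumors 3 and 4. The log2 fold change against PBS was 1.38 for Ccl3 (95% interval -0.15 to 2.91, adjusted p = 0.243 by edgeR) and 1.37 for Ccl4 (95% interval -0.22 to 2.97, adjusted p = 0.252).

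Ccl5 held 1013.1, 519.6, 954.3 and 2597.5 normalized counts in the SE tumors. Replicates 1, 3 and 4 lay above all PBS tumors and replicate 2 lay within their range. For replicate 3 this depended on the scaling, since its deposited count of 764 was below the 867 of PBS tumor 4. On the deposited counts the exact permutation p against PBS was 0.229. Against PBS the log2 fold change was 1.24 (95% interval 0.10 to 2.38, adjusted p = 0.243 by edgeR, exact permutation p = 0.0857). It fell to 0.63 without SE tumor 4, and Ccl3 fell from 1.38 to 0.93 without it.

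Ccr1 moved least after SE, with 164.5, 86.4, 253.6 and 303.3 normalized counts. SE tumors 1 and 2 lay within the PBS range, and SE tumors 3 and 4 lay above it. The deposited counts were 246, 83, 203 and 149 in SE tumors 1 to 4, against 87 to 186 in the PBS tumors. This split for Ccr1 thus depended on the scaling. Against PBS the estimate was 0.72 on the log2 scale (95% interval -0.32 to 1.77, adjusted p = 0.303 by edgeR).

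**Figure D3:**
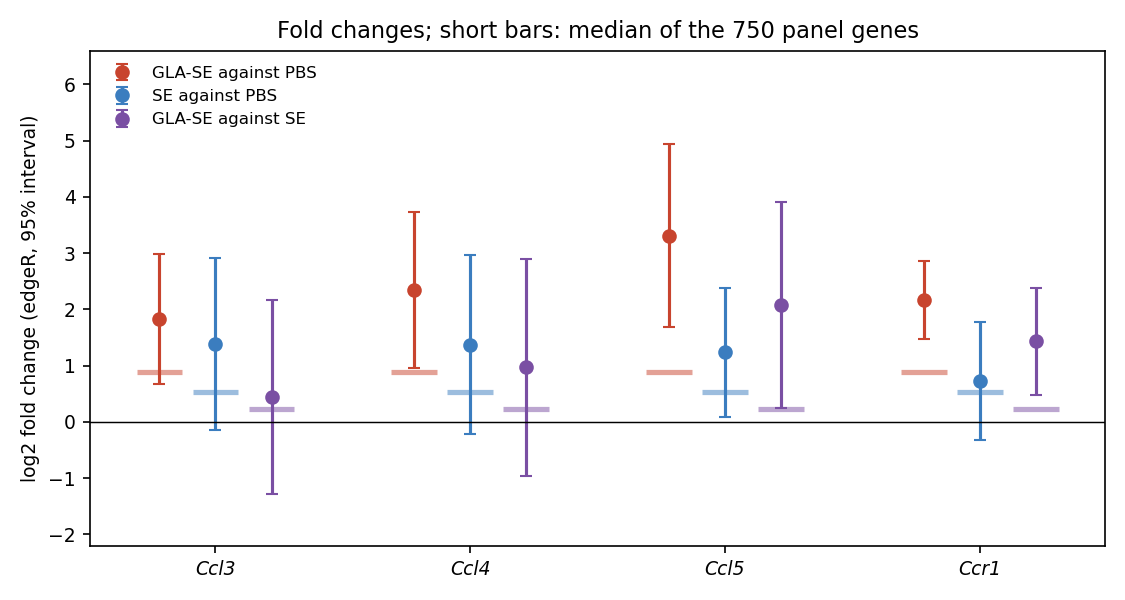
Log2 fold changes with 95% intervals of the 4 genes in the 3 comparisons, from edgeR with 4 tumors per group, beside the median of the 750 genes. The intervals of GLA-SE against PBS lie above 0 for all 4 genes, and those of Ccl3 and Ccl4 in GLA-SE against SE span 0, from -1.29 to 2.17 for Ccl3.

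Adding GLA to the emulsion is read from GLA-SE against SE, which shares its GLA-SE tumors with the first comparison and its SE tumors with the second. Ccr1 was 2.71-fold higher in GLA-SE than in SE tumors with no overlap, and Ccl5 was 4.21-fold higher with overlap. By edgeR neither passed the adjusted threshold, and 0 of the 4 genes were called against 2.13% of the 750 genes. DESeq2 called 2 of the 4 (Ccl5 and Ccr1), in a panel with 13.3% higher by that tool. At an unadjusted p under 0.05, 2 of the 4 genes (Ccl5 and Ccr1) passed by edgeR, beside 17.7% of the panel.

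For Ccr1 the lowest GLA-SE tumor held 376.8 normalized counts and the highest SE tumor 303.3. Groups apart in this direction were found for 14.4% of the 750 genes. The log2 fold change was 1.44 (SE 0.41, 95% interval 0.49 to 2.39, adjusted p = 0.122 by edgeR), and the exact permutation p of 0.0286 became 0.0686 over the 12 pairs. Without SE tumor 4 the log2 fold change was 1.70 with an adjusted p of 0.0362 by edgeR, where 13.5% of the panel was called higher. The adjusted p by DESeq2 was 0.00525.

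For Ccl5 only SE tumor 4, at 2597.5 normalized counts, reached into the GLA-SE range of 1615.7 to 14177.2, and it lay above GLA-SE tumors 1 and 2. The log2 fold change was 2.07 (SE 0.80, 95% interval 0.24 to 3.90, adjusted p = 0.231 by edgeR), and DESeq2 gave an adjusted p of 0.0219. On the deposited counts the groups were apart, with 1556 in the lowest GLA-SE tumor and 1515 in the highest SE tumor. Without scaling 11.7% of the panel was called higher by edgeR. Panel totals were 1186487 to 1612415 in the GLA-SE tumors and 810260 to 1268512 in the SE tumors. Without GLA-SE tumor 3 the reference-scaled log2 fold change of Ccl5 was 0.92.

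Ccl3 and Ccl4 were not shown to differ between GLA-SE and SE. Their log2 fold changes were 0.44 (95% interval -1.29 to 2.17, adjusted p = 0.832 by edgeR) and 0.97 (95% interval -0.96 to 2.90, adjusted p = 0.648). Without GLA-SE tumor 3 the Ccl3 estimate turned to -0.24, and without SE tumor 4 it was 0.89. In an alternative chosen after seeing the data, which left out both of these tumors, the values were 0.21 for Ccl3, 0.48 for Ccl4, 1.54 for Ccl5 and 1.57 for Ccr1, with none called by edgeR beside 9.07% of the panel.

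The spread among tumors separated the ligands from the receptor in the GLA-SE group but not in the PBS group. In the GLA-SE tumors the coefficient of variation was 111% for Ccl5, 89.6% for Ccl4 and 77.0% for Ccl3, but 24.6% for Ccr1. GLA-SE tumor 3 was the highest of its group for all 4 genes, at 6.32 times the median of the other 3 tumors for Ccl5 and 1.35 times for Ccr1. On the log2 scale the SD in the GLA-SE tumors was 0.99 for Ccl3, 1.23 for Ccl4, 1.38 for Ccl5 and 0.38 for Ccr1. The panel median was 0.32. In the PBS tumors this SD lay between 0.49 for Ccl4 and 0.55 for Ccr1, against a panel median of 0.24. In the SE tumors it was 1.44, 1.47, 0.96 and 0.80 in the same gene order, against a panel median of 0.74. There Ccl5 lay nearer to Ccr1 than to Ccl3 and Ccl4. PBS tumor 2 and SE tumor 2 were the lowest of their groups for all 4 genes.

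Ratios between the genes within a tumor do not depend on the scaling, and only their change between tumors is read, since probes differ in efficiency. The Ccl3 to Ccl4 ratio was narrow across the study, from 1.54 to 2.75 over the 12 tumors. It was 2.07 to 2.603 after PBS and 1.54 to 2.37 after GLA-SE, and the groups overlapped (log2 difference -0.38, exact permutation p = 0.0571). In SE against PBS the log2 difference was 0.033 with an exact permutation p of 0.743.

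The Ccl3 to Ccl5 ratio changed most after GLA-SE. It was 0.357, 0.363, 0.225 and 0.234 in the PBS tumors and 0.114, 0.181, 0.082 and 0.143 in the GLA-SE tumors. The groups did not overlap, so relative to Ccl5 there was less Ccl3 in every GLA-SE tumor than in any PBS tumor. The log2 difference was -1.20 (SE 0.31), with an exact permutation p of 0.0286 that became 0.309 after adjustment over the 18 ratio tests. None of these 18 tests passed after adjustment. In SE tumors 1 to 4 the Ccl3 to Ccl5 ratio was 0.126, 0.222, 0.677 and 0.281, so SE tumor 1 lay within the GLA-SE range. GLA-SE and SE tumors overlapped (log2 difference -1.11, exact permutation p = 0.0857).

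The ratio of Ccl5 to its receptor gene Ccr1 was 3.77, 3.74, 5.90 and 4.66 in the PBS tumors. It was 5.95, 2.66, 20.6 and 6.58 in the GLA-SE tumors. GLA-SE tumors 1, 3 and 4 lay above all PBS tumors, tumor 1 only just and tumor 3 far above, and GLA-SE tumor 2 lay below them (log2 difference 0.62, exact permutation p = 0.4).

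**Figure D4:**
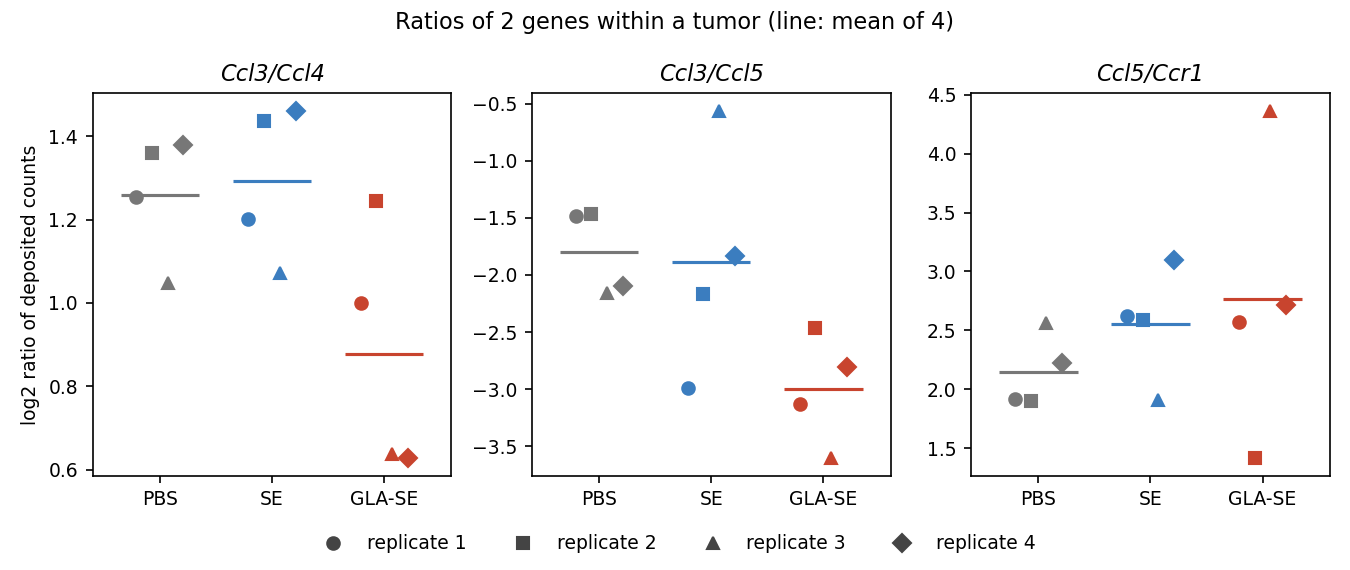
Ratios of counts between pairs of the 4 genes within each tumor (log2 scale), by group, with 4 tumors per group. The Ccl3 to Ccl5 ratio is the pair whose GLA-SE points (0.082 to 0.181 as ratios) lie below all PBS points (0.225 to 0.363).

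Likeness of profile was measured as the root mean square difference of centered log2 values over the 12 tumors, among 672 genes with a mean of at least 20 normalized counts. The nearest gene to Ccl3 was Ccl4, at 0.27, followed by Osm (0.32), a cytokine of the IL-6 family, and Plaur (0.34), the urokinase receptor. The nearest to Ccl4 were Ccl3, Il1rn (0.33), the IL-1 receptor antagonist, and Il1r2 (0.38), the decoy IL-1 receptor. Ccl5 stood 305th in the order for Ccl3 and 86th in that for Ccl4, while in its own order Ccl4 stood at place 32 and Ccl3 at place 55. The nearest genes to Ccl5 were Ccr7 (0.36), the homing receptor for CCL19 and CCL21, Socs3 (0.41), a cytokine signaling inhibitor, and Arg2 (0.41), an arginase. Ccr1 was closest to Klra2 (0.25), a Ly49 family receptor, Bst1 (0.25), an ectoenzyme of myeloid cells, and Msr1 (0.32), a macrophage scavenger receptor. These are descriptions over tumors that share group, scaling and depth.

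Among 6 related genes, which are the receptor gene Ccr3 and further ligands of CCR1 or CCR3, 4 rose after GLA-SE relative to PBS and none fell, a share near the 68.3% of the panel. Ccl7, a monocyte attractant that binds CCR1, rose from 131 ± 16.5 to 621 ± 398 normalized counts (log2 fold change 2.25, adjusted p = 0.00204 by edgeR), close to the 2.16 of Ccr1. Ccl11, the eosinophil attractant eotaxin, rose from 201 ± 37.2 to 825 ± 260 (2.04, adjusted p = 0.000311). Ccl6 and Ccl9, rodent ligands of CCR1, rose by less, with log2 fold changes of 1.55 and 1.27. Ccr3 (0.88, adjusted p = 0.0941) and Ccl24, an eotaxin (0.58, adjusted p = 0.481), did not pass. With panel median scaling 2 of the 6 still rose (Ccl7 and Ccl11), beside 8.13% of the panel, and the log2 fold change of Ccl9 was -0.01. None of the 6 passed in SE against PBS or in GLA-SE against SE by edgeR.

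Over 26 further CC family genes of the panel, 17 rose in GLA-SE against PBS, a share near the 68.3% of the panel, with a median log2 fold change of 1.38 against 0.89 for all 750 genes. Scaled to the panel median, 6 rose and 6 fell, beside 8.13% of the panel higher and 40.9% lower. With TMM scaling 9 rose and 1 fell, beside 19.7% higher and 22.4% lower. Ccl5 stood second of the 30 family genes in that comparison, after Ccl21a (3.57, adjusted p = 0.0408 by edgeR), a lymphoid tissue chemokine with one very uneven group (1205 ± 1854 normalized counts). Ccrl2, an atypical receptor (3.29), and Ccr7 (2.75) followed, and without GLA-SE tumor 3 they were at 1.77 and 1.70. Ccl4 stood sixth, Ccr1 eighth and Ccl3 at place 11. In GLA-SE against SE Ccl5 had the highest estimate of the 30 and Ccr1 the fourth highest, with none of the 30 called by edgeR.

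**Figure D5:**
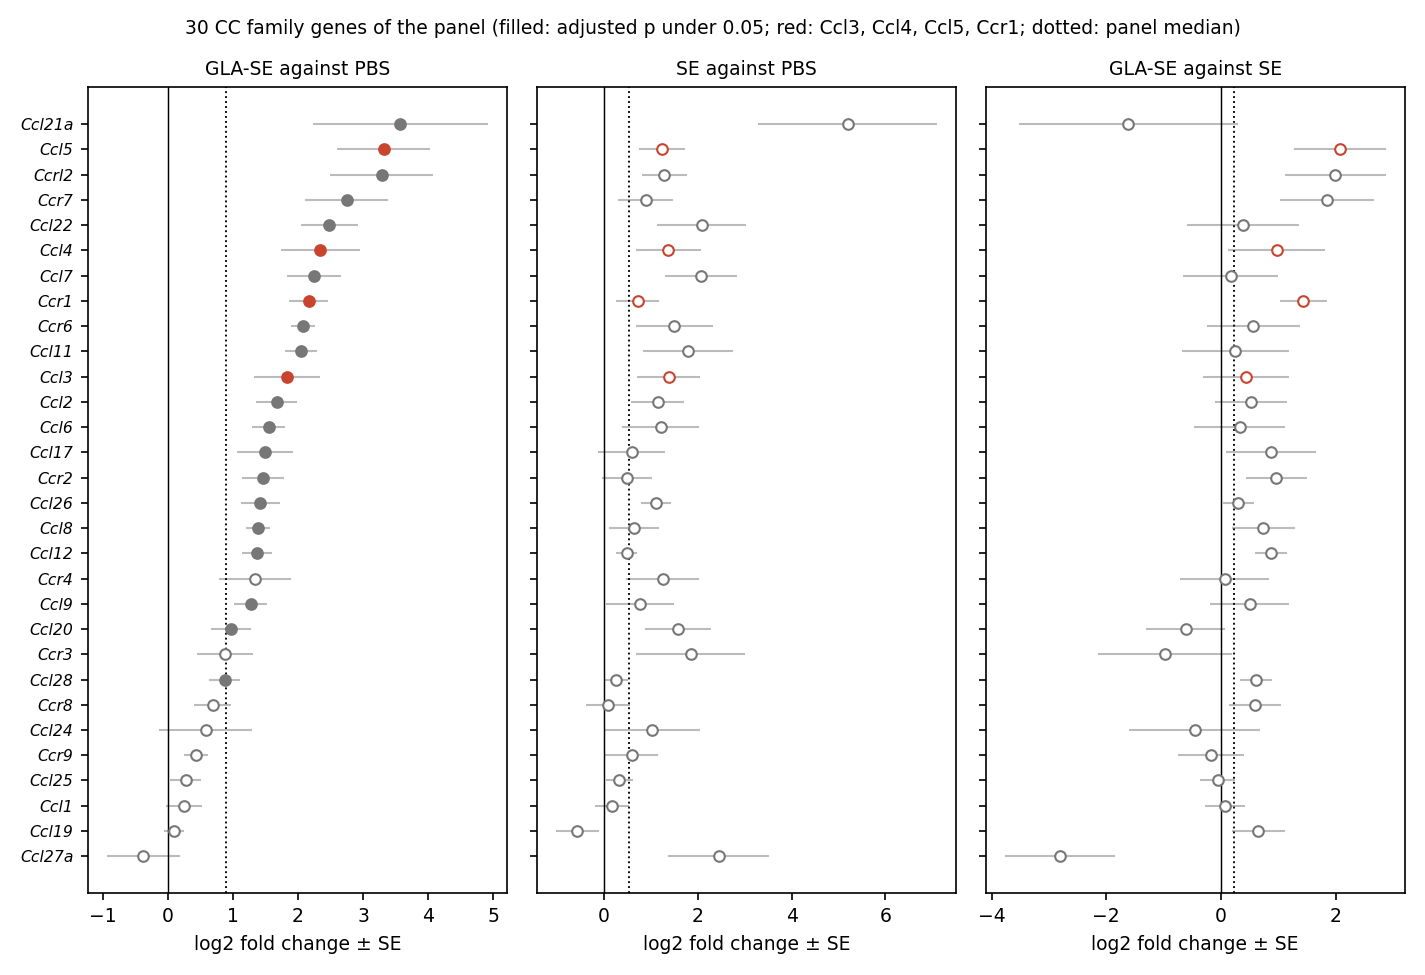
Log2 fold changes of 30 CC chemokine and receptor genes of the panel in the 3 comparisons, with bars of 1 standard error, filled points past the adjusted threshold and the 4 genes in red. In GLA-SE against PBS and GLA-SE against SE Ccl5 lies at 3.31 and 2.07, and most of the family lies above 0 in GLA-SE against PBS.

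Genes that answer NF-kB and interferon signaling, both of which act in the response to TLR4, also rose in GLA-SE against PBS. Of 13 early NF-kB response genes 11 rose in GLA-SE against PBS (median log2 fold change 1.85), where 68.3% of the panel rose, led by Il1b (5.18), Ptgs2, the inducible cyclooxygenase (4.27), and Il6 (4.07). Without GLA-SE tumor 3 these were 3.64, 2.19 and 2.30. Of 18 interferon response genes 17 rose (median 1.54), led by Oasl1 (4.07), Rsad2, the antiviral enzyme viperin (2.69), and Isg15, a ubiquitin-like protein (2.18), and these were 2.83, 2.43 and 1.67 without GLA-SE tumor 3. With panel median scaling 5 of the 13 rose and 3 fell, and 5 of the 18 rose and 2 fell. The panel then had 8.13% higher and 40.9% lower. Ccl5 was at 3.31 with all tumors and at 2.16 without GLA-SE tumor 3. In GLA-SE against SE 0 of the 13 and 3 of the 18 were higher by edgeR, beside 2.13% of the panel. None of either list passed in SE against PBS.

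Markers of leukocytes and stroma also differed between the tumors, and their part in the results was not tested. The summed level of 7 monocyte and macrophage markers lay between 28900 and 36858 normalized counts in the PBS tumors. It lay between 82741 and 122295 in the GLA-SE tumors, with 7 of 7 markers higher, beside 68.3% of the panel. In SE tumors 1 to 4 it was 24246, 31377, 72706 and 106801, which splits them the way the normalized counts of Ccl3, Ccl4 and Ccr1 did. For Ccr1 this split was not seen on the deposited counts. GLA-SE tumor 3 had the highest sum. With panel median scaling 2 of the 7 markers were higher in GLA-SE against PBS and none lower, beside 8.13% and 40.9% of the panel.

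Summed neutrophil markers lay between 204 and 226 normalized counts in the PBS tumors. They were 802, 1058, 8857 and 2160 in GLA-SE tumors 1 to 4. The tumor highest in Ccl3, Ccl4 and Ccl5 was thus also highest here. Of the 5 markers 3 rose, where 68.3% of the panel rose. With panel median scaling 2 rose and 2 fell, beside 8.13% and 40.9% of the panel. In the SE tumors the sums were 205, 197, 662 and 1173. Endothelial and fibroblast markers, of which 7 of 7 rose in GLA-SE against PBS, summed to between 4024 and 9125 in the PBS tumors and between 17948 and 26214 in the GLA-SE tumors. Scaled to the panel median, none of the 7 was higher and 1 was lower, beside 8.13% and 40.9% of the panel. They summed to 3473, 4395, 27978 and 119980 in SE tumors 1 to 4.

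T-cell markers summed to between 835 and 2340 normalized counts in the PBS tumors. The sums were 706 to 4933 in the SE tumors and 2396 to 3316 in the GLA-SE tumors. In GLA-SE against PBS 4 of 8 were higher, where 68.3% of the panel was. Of the NK-cell markers 2 of 5 rose, with sums of 54.0 to 148 after PBS, 75.0 to 281 after SE and 173 to 244 after GLA-SE. Of the dendritic-cell markers 2 of 4 rose, with sums of 638 to 777, 676 to 876 and 844 to 1208 in the same order. The T-cell, NK-cell and dendritic-cell shares were below that of the panel. Their median log2 fold changes were 0.83, 0.44 and 0.57, below the panel median of 0.89. Of the 5 NK-cell markers, 2 had a mean of at least 20 normalized counts. With panel median scaling none of the T-cell, NK-cell or dendritic-cell markers rose, where 8.13% of the panel did. Of these markers 1, 2 and 2 fell, where 40.9% of the panel did. Without GLA-SE tumor 3 the T-cell count was 1 of 8, where 64.4% of the panel was higher. Of the 6 B-cell markers 2 fell, beside 0.4% of the panel, and 6 fell with panel median scaling, beside 40.9%. No marker gene was at 0 in any tumor, which held for every gene of the panel.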

How the data were processed

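The authors deposited raw probe counts from nCounter cartridges for 770 genes in 12 tumors, and the table carried no normalization. The study's methods describe scaling to reference genes in the nSolver software, which was rebuilt here. Of 20 reference genes, 17 were kept by the geNorm stability rule over all 12 tumors, and each tumor's count was divided by their geometric mean relative to its geometric mean over the tumors. This assumes that the reference genes did not move with treatment. Tumors were grouped by their labels. The deposited counts of the 8 tumors of each comparison were tested with edgeR 4.0.16 (quasi-likelihood, R 4.3.3) over 750 genes, with Benjamini-Hochberg adjustment at 0.05 and these factors as the scaling. Exact permutation tests were two-sided on log2 of the normalized count plus 1, and for ratios on log2 ratios of counts. DESeq2 1.42.0, limma 3.58.1, other scalings, a filter, a fit over all 12 tumors, a replicate block and the omission of each tumor were alternatives. The edgeR step was tested on simulated data.

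The 4 genes and the lists (related ligands and receptors, other CC genes, NF-kB, interferon, cytotoxic, TLR4 and cell type markers) were chosen with earlier results of these data known. Named genes of a list were the 3 with the highest log2 fold changes in GLA-SE against PBS among those that passed and had a mean of at least 20 normalized counts, all of the related ligands and receptors, and the 3 nearest profiles of each of the 4 genes. One related gene is not reported here and was left out of the lists and the profile ranking. Of the panel symbols, 754 matched RefSeq symbols of GRCm38.p6 and 8 matched a synonym. Panel totals per tumor were 810260 to 1612415 counts, and the lowest count of the 4 genes was 41 (Ccl4 in SE tumor 2), where counting error weighs most.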

Additional observations from a re-analysis of the deposited data

Results flagged for a closer look

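Ccl5 in GLA-SE tumor 3 lay apart from its group at 14177.2 normalized counts, where the other 3 GLA-SE tumors held between 1615.7 and 3359.2. Its gap to the nearest tumor was 0.861 of the group's range, above Dixon's 95% critical value for 4 samples. The 4 genes in 3 groups gave 12 sets of values, of which 1 was found this way, and chance alone finds about 1 in 20 (0.6 of 12). The same tumor had the highest sum of neutrophil markers (8857) and of monocyte and macrophage markers (122295), and the part of these cells in the Ccl5 value was not tested.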

How the results depend on the processing

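In GLA-SE against PBS, 73 of 80 alternative fold changes of the 4 genes kept their direction and side of the threshold, and 7 lost the call. The log2 fold change of Ccl3 was 0.48 under panel median scaling, 0.88 under TMM, 0.45 under quantile normalization and 1.83 in a fit of all 12 tumors (adjusted p 0.301, 0.108, 0.413 and 0.0584). That of Ccl4 was 0.98, 1.39 and 0.85 under the first 3 (adjusted p 0.103, 0.0531 and 0.198), and 2 of the 4 genes were called under each of these. The panel had 8.13%, 19.7% and 14.4% of its genes higher in the same order. In SE against PBS all 80 values kept their side, with 0 genes called, and the lowest were 0.53 for Ccl3 and 0.56 for Ccl5 (panel median scaling) and 0.42 for Ccl4 and 0.10 for Ccr1 (quantile normalization). In GLA-SE against SE 75 of 84 did. Ccl3 turned to -0.044 under panel median scaling and -0.094 under quantile normalization. Calls appeared without scaling for Ccl5 (2.32) and Ccr1 (1.63), with DESeq2 for Ccl5 (2.07) and Ccr1 (1.44) and in the fit of all 12 tumors for Ccr1 (1.44), which gave 2, 2 and 1 genes called beside 11.7%, 13.3% and 9.2% of the panel higher. The cause was not tested.

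Leaving out each tumor in turn gave ranges in GLA-SE against PBS of 1.15 to 2.09 for Ccl3, 1.54 to 2.62 for Ccl4, 2.16 to 3.62 for Ccl5 and 2.01 to 2.38 for Ccr1, with 4 called each time. In SE against PBS they were 0.93 to 1.69, 0.90 to 1.69, 0.63 to 1.5 and 0.46 to 0.98, with 0 called. In GLA-SE against SE they were -0.24 to 0.89, 0.17 to 1.45, 0.92 to 2.69 and 1.18 to 1.70, with 0 to 1 called.

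Equal replicate numbers did not pair the tumors (correlations of deviations -0.248 to 0.184, with 1 or 2 of 4 tumors closest to their own number). With a replicate block the log2 fold changes of Ccl3, Ccl4, Ccl5 and Ccr1 were 1.60, 2.00, 2.77 and 2.20 in GLA-SE against PBS (4 called), 0.99, 0.96, 1.06 and 0.65 in SE against PBS (0 called), and 0.66, 1.06, 1.70 and 1.53 in GLA-SE against SE (0 called). The block changed no call. With 4 tumors per group, the 95% intervals in GLA-SE against SE reached log2 differences of 2.17 for Ccl3 and 2.90 for Ccl4.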

Other observations

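Products of cytotoxic lymphocytes, cells that carry receptors for CCL3, CCL4 and CCL5, rose in 4 of 8 genes in GLA-SE against PBS, where 68.3% of the panel rose, and in 2 of 8 in GLA-SE against SE, where 2.13% rose, both by edgeR. Gzmb, a granzyme, held 910 ± 275 normalized counts in the GLA-SE tumors, 133 ± 36.0 in the SE tumors and 144 ± 50.3 in the PBS tumors (SD, n = 4 each). Its log2 fold change against SE was 2.77 (adjusted p = 0.00773 by edgeR). Prf1, the pore-forming perforin, held 665 ± 110, 144 ± 52.8 and 160 ± 85.5, with a log2 fold change against SE of 2.21 (adjusted p = 0.0129). With panel median scaling 3 of the 8 rose and 2 fell in GLA-SE against PBS, beside 8.13% and 40.9% of the panel. In GLA-SE against SE 0 of the 750 genes were called with panel median scaling or with quantile normalization. With TMM scaling 3 of the 750 (0.4%) were higher. The 2 calls against SE thus depended on the scaling. Gzma rose against PBS (3.12) and had an estimate of 1.94 against SE (adjusted p = 0.141).

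Of 14 genes of the TLR4 receptor and its adaptors, 10 rose in GLA-SE against PBS, beside 68.3% of the panel, with a median log2 fold change of 0.52, below the panel median of 0.89. Cd14, the co-receptor that hands lipid A to TLR4, led them (3.69), followed by Lbp, the lipopolysaccharide binding protein (1.81), and the adaptor gene Myd88 (0.80). Without GLA-SE tumor 3 Cd14 was at 2.00. The direction of this list depended on the scaling. With panel median scaling 1 gene rose and 12 fell, beside 8.13% and 40.9% of the panel, and the Myd88 estimate turned to -0.51. None of the 14 passed in SE against PBS or in GLA-SE against SE by edgeR.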
